A study of Mus musculus with 98 samples.

Results

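The RNA levels of 8 genes that mark thymic tuft cells were examined in the mouse thymic stroma. They were *Pou2f3* and *Gfi1b*, which encode transcription factors, *Gnat3* and *Trpm5*, which encode parts of a taste-like signalling cascade, the cytokine gene *Il25*, the cytoskeletal gene *Avil*, and *Dclk1* and *Lrmp*. The genes were chosen by name from a list of tuft cell genes, and all 8 were present among the 39179 genes of the bulk counts and the 20760 genes of the newborn single-cell counts.

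The bulk RNA-seq data consisted of 84 libraries of live CD45- stromal cells that had been sorted from the thymus of wild-type (WT) mice, with 6 libraries for each of 14 combinations of population and age. Medullary thymic epithelial cells (mTEC), cortical thymic epithelial cells (cTEC), CD31+ endothelial cells, gp38+CD26-, gp38+CD26+ and Ly51+gp38- cells were sorted at postnatal day 0 (P0) and at 4 weeks. mTEC at 4 weeks were in addition sorted into mTEClo and mTEChi. The newborn single-cell data were made from Ter119-CD45- cells at P0, from 3 *Tbx1*+/-*Crkl*+/- mice and 3 WT littermates. A further single-cell series of 8 libraries held EpCAM- cells of WT mice of 5 ages. That series had 2 libraries each at 4 weeks, at P0 and at E16.5, and 1 each at E13.5 and at E12.5. The compound heterozygous mice carried a lacZ allele of *Tbx1* and a germline null allele of *Crkl* in all cells, so that the thymic epithelium was not targeted alone, and their newborn cells, as those of the littermates, were fixed with RNAprotect before capture. The suspensions from adult thymi had been depleted of CD45+ cells by magnetic selection. The titles of the bulk libraries carried the prefix TXCK or DFCK, 3 of each in every population and age, whose meaning is not stated in the labels.

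Tuft cells are rare chemosensory epithelial cells with a bundle of stiff microvilli. They are found in the gut, the airways and the thymic medulla, and they sense luminal or local molecules through taste-type G proteins that open the cation channel TRPM5. In the thymic medulla they depend on POU2F3, produce the type 2 cytokine IL-25 and lipid mediators, and are counted among the mature, post-Aire descendants of medullary epithelium. The names mTEClo and mTEChi refer to the amount of MHC class II and CD80 on the cell surface: the mTEChi gate contains the cells that express *Aire*, and the mTEClo gate contains progenitors, *Ccl21a*-expressing cells and mature cells that have left the *Aire* stage.

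The bulk libraries held 25702 to 15852166 read counts in genes, and 83 of 84 held at least 5785352. The library far below the others was labelled as gp38+CD26+ cells at 4 weeks (replicate 2), and its markers went against that label. In it 6 markers of cTEC summed to 29025 CPM (counts-per-million of the total over genes), against 3.82 to 153.8 CPM in the other 5 libraries of its group and 22819 to 40869 CPM in cTEC at 4 weeks, and 3 fibroblast markers summed to 1829 CPM, against 40311 to 47072 CPM in the other 5. Levels of *Trpm5* and *Dclk1* in that group are therefore given with and without this library. Other values of the group, and the medians used for correlations, include it. The 36 libraries of thymic epithelial cells (TEC) ranged from 5785352 to 14454727 counts. In the sorted mTEC the marker genes went with the labels: in mTEClo against mTEChi, 5 of 6 markers of the mTEChi (*Aire*, *Cd80*, *Cd86*, *H2-Aa*, *Fezf2* and *Ctss*) were lower and 4 of 4 of the mTEClo (*Ccl21a*, *Krt14*, *Krt5* and *Itga6*) were higher. The newborn libraries held 4978011 to 31418527 UMIs in 21451 cells, of which 9083 carried a TEC label, and 44 cell barcodes occurred in more than 1 of them. In the series of ages there were 36208 cells, and some barcodes were shared there too. The labels do not say whether the libraries of a group came from different mice in the bulk data, so p-values there measure only the spread between libraries, which may be technical. Intervals and limits for counts of 0 cover counting error only.

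In the GRCm38 assembly (mm10), *Pou2f3* lay at chr9:43123939-43210369 on the minus strand, *Gfi1b* at chr2:28609450-28621982 on the minus strand, *Gnat3* at chr5:17962549-18019834 on the plus strand and *Trpm5* at chr7:143069153-143094642 on the minus strand. *Il25* lay at chr14:54932695-54935837, *Avil* at chr10:127000709-127020994, *Dclk1* at chr3:55242364-55539068 and *Lrmp* at chr6:145115653-145174934, all on the plus strand. Exons of 4 of the 8 genes overlapped those of a gene on the opposite strand, namely *Avil* with *Tsfm*, *Trpm5* with *Tssc4* (220 bases, the longest overlap), *Lrmp* with *Casc1*, and *Dclk1* with *Gm42609* (87 bases). Whether the bulk counting used strand is not given in the sources used here, so a part of the reads of these 4 genes cannot be told apart from those of the partner.

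*Avil* and *Gnat3* were the pair of the 8 genes with the most alike levels over the 14 bulk populations (Pearson's r = 0.98 over 14 medians of log2(CPM + 1), a description). The 150 bases before their RefSeq start sites are shown here because POU2F3, as other POU factors, binds the octamer ATGCAAAT. The sequences were read from RefSeq (GRCm38.p6) on the plus strand, at chr10:127000559-127000708 for *Avil* and at chr5:17962420-17962569 for *Gnat3*, and capitals mark the 7-letter core ATGCAAA on either strand. RefSeq starts *Gnat3* downstream of the gene start given above, so the last 21 bases of its stretch lie inside the gene as positioned there.
Avil: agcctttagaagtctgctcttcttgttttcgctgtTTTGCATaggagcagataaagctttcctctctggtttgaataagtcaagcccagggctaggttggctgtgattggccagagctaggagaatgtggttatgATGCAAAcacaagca
Gnat3: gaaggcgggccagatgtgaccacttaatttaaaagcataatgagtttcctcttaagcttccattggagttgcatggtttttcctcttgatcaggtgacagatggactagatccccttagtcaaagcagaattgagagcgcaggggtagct

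The core occurred at 2 places before the *Avil* start, the nearer on the plus strand from base 15 before the start and the farther on the minus strand, and at none in the *Gnat3* stretch. RefSeq gave 6 promoters, of 250 bases before to 50 bases after the start, for 5 of the 8 genes (*Avil*, *Dclk1*, *Gfi1b*, *Gnat3* and *Trpm5*). The full octamer was found in 0 of these 6, and in 570 of all 32851 promoters (1.74%). The core was found in 1 of the 6, that of *Avil*, and in 1520 of 32851 (4.63%). The core was added to the search after the octamer had been looked up, and a match describes the letters of the window only.

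Across the 14 bulk populations the levels fell into distinct patterns. *Gfi1b* and *Il25* had counts in TEC only among the libraries sequenced, *Avil* and *Gnat3* were high in the 4 medullary groups, and *Trpm5* and *Dclk1* were also abundant in mesenchymal cells. *Pou2f3* had low counts in several mesenchymal groups as well. All levels are given as CPM. In bulk samples fewer cells of a type and less RNA per cell cannot be told apart. Divided by the exonic length, the median level in mTEClo was highest for *Avil* (91.9 CPM per kb), followed by *Gnat3* (65.8) and *Lrmp* (45.1). It was 9.56 CPM per kb for *Gfi1b*, 8.76 for *Pou2f3*, 8.69 for *Dclk1*, 6.63 for *Trpm5* and 0.105 for *Il25*.

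**Figure D1:**
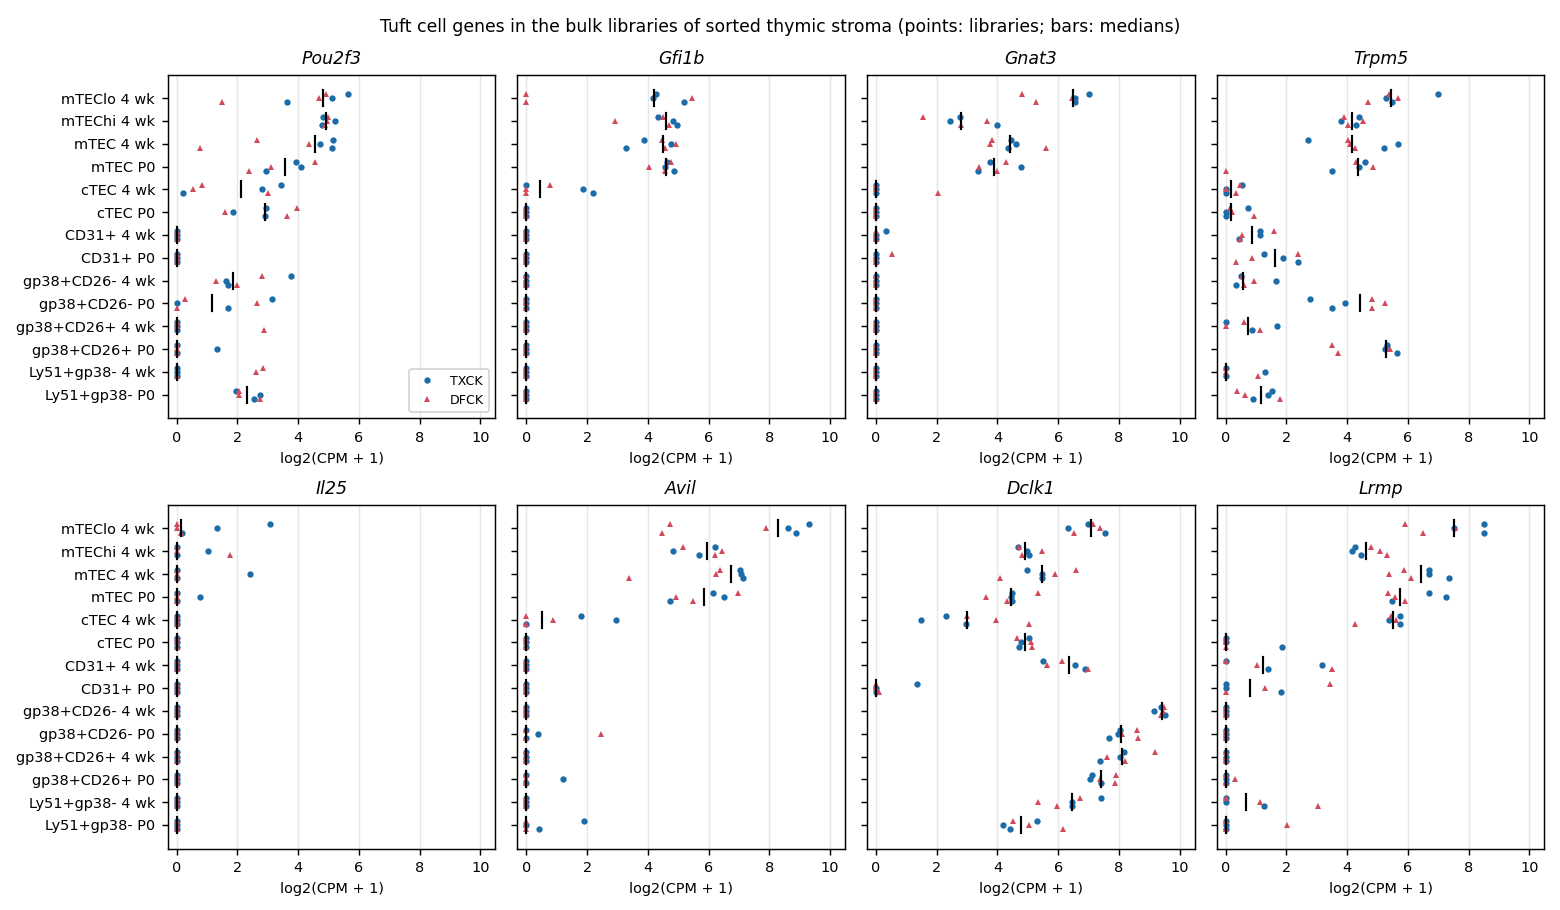
Level of each of the 8 genes in every bulk library (points, circles for the prefix TXCK and triangles for DFCK) of the 14 populations and ages, as log2(CPM + 1) on the horizontal axis, with bars at the median of 6 libraries. *Avil* and *Gnat3* are high in the medullary groups, and the highest median of *Dclk1* is that of gp38+CD26- cells at 4 weeks, at 686 CPM.

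The highest median was in mTEClo for *Gnat3*, *Trpm5*, *Avil*, *Lrmp* and *Il25*, in mTEChi for *Pou2f3* and *Gfi1b*, and in gp38+CD26- cells at 4 weeks for *Dclk1*. That of *Il25*, 0.112 CPM, lay between 2 libraries with 1 count each, and its medians in all other populations were 0. For all 8 genes, the ranges of the libraries of the first and the second population in this order overlapped. *Avil* showed a gap lower down, as the libraries of mTEC at P0 did not overlap with those next in the order, of cTEC at 4 weeks. The plot of levels by library shows these ranges.

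mTEClo and mTEChi at 4 weeks were compared to find which side of the medulla held the tuft cell genes. *Gnat3*, *Lrmp*, *Dclk1* and *Trpm5* were higher in mTEClo, by 1.45 to 3.17 on the log2 scale. The transcription factor genes *Pou2f3* and *Gfi1b* did not pass the test, and *Avil* lay just above its threshold. In edgeR's quasi-likelihood test with Benjamini-Hochberg adjustment over all genes, 4 of the 8 were thus higher and none lower, and *Il25* was filtered out as too low. Of all 15443 genes tested, 6.24% were higher and 10.2% lower in mTEClo. Without TMM scaling the split among all called genes changed from 964 higher and 1573 lower to 1474 higher and 1312 lower, and the median log2 fold change of all genes shifted by 0.19, from -0.10 to 0.09. The mTEClo libraries detected fewer genes (14202 to 15428) than those of mTEChi (19750 to 20835).

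Among the transcription factors, *Pou2f3*, the master regulator of the tuft lineage, was at 1.81, 27.0 and 49.4 CPM (lowest, median and highest of 6 libraries) in mTEClo and at 26.6, 29.2 and 36.2 CPM in mTEChi. The ranges overlapped, with the mTEClo libraries on both sides of the narrow range of the mTEChi. The log2 fold change was -0.45 ± 0.53 (SE; adjusted p = 0.664). *Gfi1b*, a zinc finger repressor of blood and tuft cells, was at 0 in mTEClo replicates 1 and 3, at 16.8 to 43.1 CPM in the other 4 mTEClo libraries, and at 6.57, 23.5 and 29.9 CPM in mTEChi. Its log2 fold change of -0.39 ± 1.10 (adjusted p = 0.875) turned to 0.21 without these 2 libraries. *Gfi1b* is also a gene of erythroid cells and megakaryocytes, and the summed level of 6 markers of these cells was 49.5 to 2252 CPM in mTEClo and 83.4 to 473 CPM in mTEChi, with 1 of 5 tested markers higher in mTEClo. Whether such cells were present, or contributed to the level of *Gfi1b*, was not tested.

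Of the chemosensory genes, *Gnat3*, which encodes the taste G protein subunit gustducin, was at 26.8, 89.5 and 127.1 CPM in mTEClo and at 1.89, 5.89 and 15.0 CPM in mTEChi. All 6 mTEClo libraries were above all 6 mTEChi libraries, and the log2 fold change was 3.17 ± 0.53 (adjusted p = 0.000797). *Trpm5*, which encodes the calcium-gated cation channel downstream of gustducin, was at 24.9, 42.4 and 126.8 CPM in mTEClo and at 12.8, 17.0 and 22.2 CPM in mTEChi. Here too the groups did not overlap, although the lowest mTEClo library was close to the highest mTEChi library. The log2 fold change was 1.45 ± 0.37 (adjusted p = 0.0148), and *Trpm5* did not pass when all 36 TEC libraries were fitted together (1.39, adjusted p = 0.229).

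*Il25*, the cytokine by which tuft cells reach type 2 lymphocytes, had counts in 8 of 84 libraries, and all 8 were among the 24 medullary libraries. In mTEClo, 4 libraries had counts, at 7.40 CPM (89 counts), 1.48 CPM (14 counts), 0.133 CPM (1 count) and 0.0906 CPM (1 count). In mTEChi it was found in 2 libraries, at 2.37 CPM (29 counts) and 1.04 CPM (13 counts). The 2 remaining libraries were of mTEC at 4 weeks, with 4.28 CPM (51 counts), and of mTEC at P0, with 0.696 CPM (8 counts). In the medullary groups of 6, from 2 libraries in mTEClo to 5 in mTEC at either age were at 0, and none of the 48 libraries outside TEC had a count.

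*Avil*, which encodes the actin-bundling protein advillin, split the mTEClo libraries. Replicates 1 and 3, both with the prefix DFCK, were at 25.8 and 21.3 CPM, the third DFCK library was at 235 CPM, and the 3 TXCK libraries were at 390, 469 and 634 CPM. In mTEChi *Avil* was at 27.6, 61.5 and 86.5 CPM, so that the low mTEClo libraries lay below every mTEChi library and the other 4 above every one. Over all libraries the log2 fold change was 2.16 ± 0.71 (adjusted p = 0.0542). Without replicates 1 and 3, which were chosen for their low *Avil*, it was 2.73, a description without a test. It passed without replicate 1 alone (2.40, adjusted p = 0.0144), without replicate 3 alone (2.41, adjusted p = 0.0107) and over all libraries in DESeq2 (2.16, adjusted p = 0.00405). Of 12 fits that left out 1 library, only these 2 passed, with values from 1.79 to 2.41. With the replicate number as a block it did not pass (1.52 ± 0.85, adjusted p = 0.271). Replicates 1 and 3 of mTEClo had the lowest *Gfi1b* and, with 177 and 236 CPM against 746 to 1672 CPM in the other 4, the lowest sums of 8 markers of post-Aire keratinocyte-like mTEC. The part of these cells in the difference was not tested.

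*Dclk1*, which encodes a microtubule-associated kinase widely used as a tuft cell marker, was at 78.5, 133 and 186.995 CPM in mTEClo and at 24.6, 28.7 and 42.9 CPM in mTEChi. Every mTEClo library was above every mTEChi library, with a log2 fold change of 1.92 ± 0.24 (adjusted p = 0.000162). *Lrmp*, which encodes a lymphoid-restricted membrane protein that associates with inositol trisphosphate receptors, was at 58.5, 183 and 366 CPM in mTEClo and at 17.0, 23.7 and 38.9 CPM in mTEChi. These groups did not overlap either, and the log2 fold change was 2.81 ± 0.43 (adjusted p = 0.000456).

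Within the prefixes, compared after the data were seen, 3 libraries stood against 3. *Dclk1* was higher in both, by 1.95 on the log2 scale (adjusted p = 0.0258) in TXCK and by 1.89 (adjusted p = 0.0138) in DFCK. *Gnat3* was higher by 3.42 (adjusted p = 0.0193) in TXCK and had a difference of 2.77 (adjusted p = 0.0598) in DFCK, and *Lrmp* was higher by 3.80 (adjusted p = 0.00317) in TXCK, with 1.59 (adjusted p = 0.0557) in DFCK. *Trpm5* passed in neither, at 1.79 (adjusted p = 0.0913) and 1.001 (adjusted p = 0.194). For *Avil*, whose libraries had been seen to divide by prefix, the differences of 3.09 in TXCK and 0.35 in DFCK are a description without a test. The difference between the prefixes was itself tested as an interaction, in which 0 of the 7 genes tested passed in edgeR's quasi-likelihood test, and 0.525% of all genes passed. An unadjusted p under 0.05 was found for 2 of the 7 and for 1889 of all 15443 genes. *Avil* was 1 of these 2, and its libraries had been seen to divide by prefix. The interaction was 2.20 ± 0.56 for *Lrmp* (adjusted p = 0.176) and 2.73 ± 1.12 for *Avil*.

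**Figure D2:**
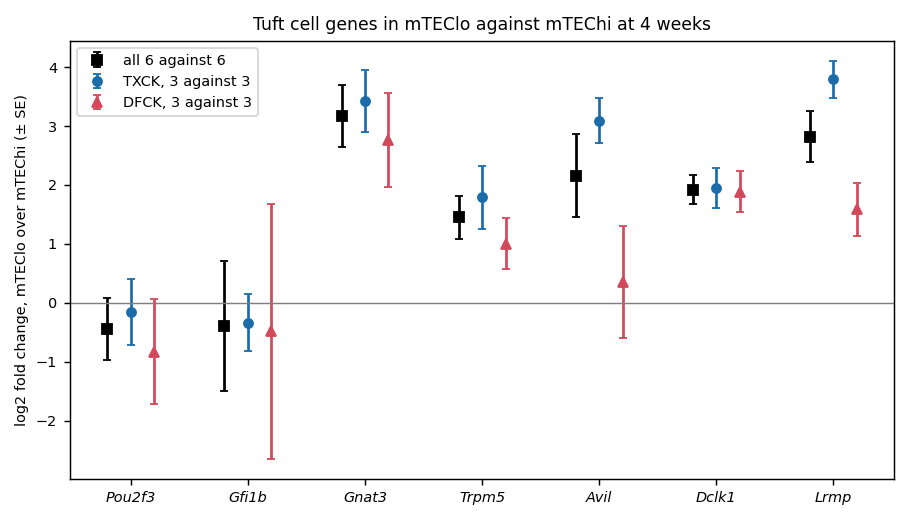
Log2 fold change of mTEClo against mTEChi (vertical axis) with its SE for the 7 genes tested, over all 12 libraries and within the TXCK and the DFCK libraries. *Dclk1* has like values in all 3 fits, whereas *Avil* is at 3.09 in TXCK and at 0.35 in DFCK.

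To set the 8 genes beside the rest of the tuft cell programme, 47 other genes of a list ordered by role were followed, of which 37 passed the filter in mTEClo and mTEChi. Of these 37, 11 were higher and 3 lower in mTEClo, with a median log2 fold change of 0.82 against -0.10 over all genes tested. In chemosensory signalling 3 of 6 were higher: *Rgs21* (3.75 ± 0.83, adjusted p = 0.00624) and *Rgs13* (2.24 ± 0.54, adjusted p = 0.0105), which encode regulators of G protein signalling, and the G protein subunit gene *Gnb3* (2.30 ± 0.45, adjusted p = 0.00282). *Rgs21* was at 16.7, 95.4 and 175.03 CPM in mTEClo and at 0, 7.19 and 8.66 CPM in mTEChi, without overlap. Within TXCK *Rgs21* did not pass (adjusted p = 0.0616). *Rgs13* did not pass when all 36 TEC libraries were fitted together (adjusted p = 0.0536) or within DFCK (adjusted p = 0.420), nor did *Gnb3* within DFCK (adjusted p = 0.0681). With the replicate number as a block, *Rgs21* (adjusted p = 0.0545) and *Rgs13* (adjusted p = 0.0722) did not pass.

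In eicosanoid synthesis 3 of 5 were higher. *Alox5*, the 5-lipoxygenase that starts leukotriene synthesis, rose by 2.78 ± 0.51 (adjusted p = 0.00164), from 3.95, 16.8 and 29.2 CPM in mTEChi to 35.6, 133 and 231 CPM in mTEClo. Its partner *Alox5ap* differed by 2.20 (adjusted p = 0.0329) and the cyclooxygenase gene *Ptgs1* by 1.54 (adjusted p = 0.0487). Among transcription factors 1 of 5 was higher, *Sox9* (0.82, adjusted p = 0.000888), a factor of many epithelia. In the group of kinases and adaptors, *Sh2d6* (2.30, adjusted p = 0.00839) and *Bmx* (2.11, adjusted p = 0.0262) were higher among 8. When all 36 TEC libraries were fitted together, *Sox9* (adjusted p = 0.0557), *Sh2d6* (adjusted p = 0.203), *Bmx* (adjusted p = 0.0830) and *Ptgs1* (adjusted p = 0.161) did not pass. Within DFCK the calls of *Alox5* (adjusted p = 0.103), *Sh2d6* (adjusted p = 0.243), *Bmx*, *Alox5ap* and *Ptgs1* were lost. With the replicate number as a block, *Alox5ap* (adjusted p = 0.198), *Ptgs1* (adjusted p = 0.0589), *Sh2d6* (adjusted p = 0.0621) and *Bmx* (adjusted p = 0.197) did not pass, and with the prefix as a term *Alox5ap* (adjusted p = 0.0536) and *Bmx* (adjusted p = 0.0720) did not.

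The cytoskeletal genes were divided. *Espn*, which encodes an actin bundler of microvilli (1.31, adjusted p = 0.00932), and *Krt18* (0.43, adjusted p = 0.00777) were higher, whereas the villin gene *Vil1* (-1.75, adjusted p = 0.0400) and *Krt20* (adjusted p = 0.00454) were lower. *Espn* did not pass within DFCK (adjusted p = 0.341), *Krt18* neither within TXCK (adjusted p = 0.0651) nor over the 36 TEC libraries (adjusted p = 0.0644), and *Vil1* neither within TXCK (adjusted p = 0.316) nor over the 36 (adjusted p = 0.135). *Krt20* was at 25.6, 120 and 235 CPM in mTEClo and at 272, 411 and 504 CPM in mTEChi, without overlap. Among receptors 0 of 6 were higher and 1 was lower, *Cd300lf* (-4.65 ± 1.41, adjusted p = 0.0376), an inhibitory receptor shared by tuft and myeloid cells. It had counts in 1 of 6 mTEClo libraries and at most 4.29 CPM in mTEChi, so it was tested because it was higher in mTEChi. The call is no support for a direction, and the value ran from -8.43 to -4.38 when 1 library was left out. Beside *Cd300lf*, the summed markers of B cells and dendritic cells were at 24.6 to 59.7 CPM in mTEChi and at most 0.847 CPM in mTEClo (4 of 4 tested markers lower in mTEClo). Those of mast cells and basophils were at 14.5 to 28.0 CPM in mTEChi and at 0 in mTEClo (2 of 2 tested lower). In mTEClo 6 of 7 and 4 of 4 of these markers were at 0 in every library. Those tested thus passed the filter through mTEChi, and the counts are no support for a direction. Which cells made the RNA of these markers was not tested, nor was their part in the level of *Cd300lf*. Leaving out 1 library ended the call in 10 of 12 fits for *Cd300lf* and for *Vil1*, in 9 for *Ptgs1*, in 8 for *Alox5ap* and in 4 for *Bmx*. *Cd300lf* did not pass within TXCK (adjusted p = 0.419) or without a filter (adjusted p = 0.0607), nor *Vil1* without TMM (adjusted p = 0.0604).

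**Figure D3:**
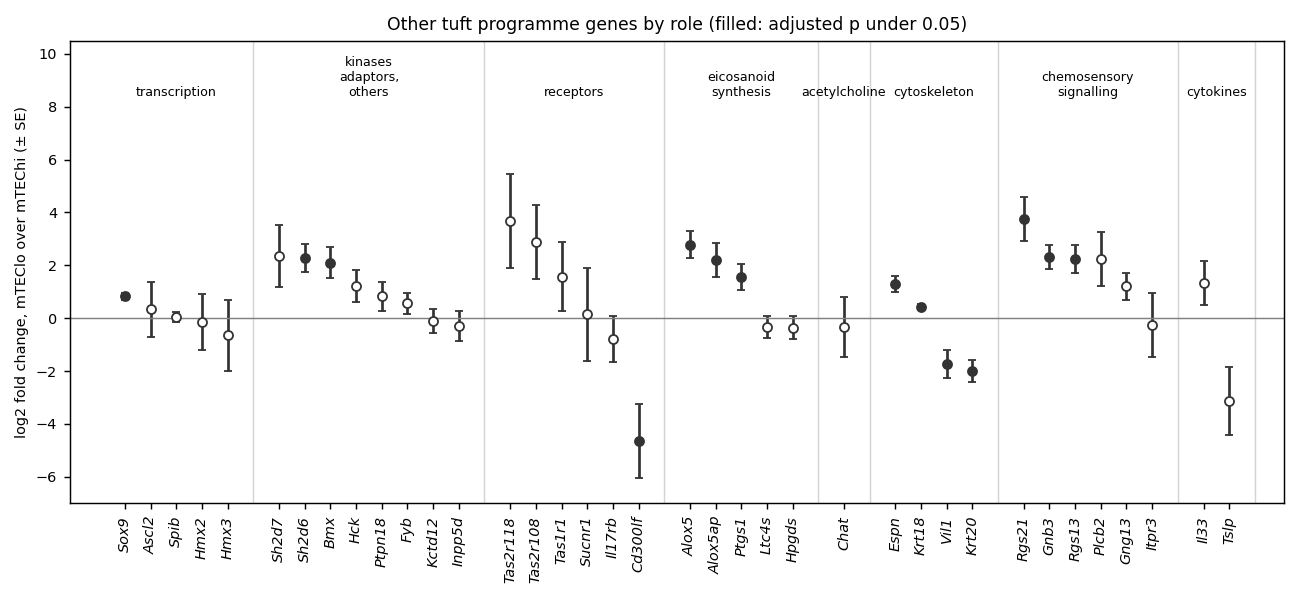
Log2 fold change of mTEClo against mTEChi with its SE for the 37 other genes of the tuft cell list that were tested, grouped by role, with filled points at an adjusted p under 0.05. *Rgs21* is the highest of the filled points, and *Cd300lf* the lowest.

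mTEC and cTEC were compared at each age to find where in the epithelium the genes were present. At P0, 4 of the 8 genes were higher in mTEC and none lower, with 6 tested (27.2% of all genes were higher and 16.3% lower). All 4 (*Avil*, *Gnat3*, *Gfi1b* and *Lrmp*) reached the level of the filter in 6 of 6 mTEC and in at most 1 of 6 cTEC libraries, so they were tested because they were high in mTEC, and the count is no support for a direction. *Avil*, *Gnat3* and *Gfi1b* were at 0 in all 6 cTEC libraries and at 25.5, 56.6 and 124.8 CPM, at 9.30, 13.6 and 26.4 CPM, and at 15.6, 23.3 and 28.2 CPM in mTEC. Set against 3 counts per cTEC library, the mean level in mTEC was at least 223-fold higher for *Avil*, at least 52.7-fold higher for *Gnat3* and at least 80.6-fold higher for *Gfi1b*. *Lrmp* was at 39.5, 53.1 and 150.96 CPM in mTEC and had counts in 1 of 6 cTEC libraries, at 2.59 CPM, with a log2 fold change of 7.70 ± 0.97 (adjusted p = 1.36e-05). Without that library (cTEC replicate 3) all cTEC were at 0 and the fitted value, which then depends on the prior count, was 12.77. For these 4 genes the groups did not overlap.

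Markers of other cells were higher in mTEC at P0 as well. Those of erythroid cells and megakaryocytes, which can also express *Gfi1b*, summed to 33.6 to 46.5 CPM in mTEC and 0.291 to 4.64 CPM in cTEC, with 2 of 3 tested markers higher. Those of B cells and dendritic cells were at 16.2 to 37.97 CPM in mTEC and at 0 in cTEC (3 of 3 tested higher), and those of thymocytes at 37.4 to 84.3 and 25.3 to 49.5 CPM (2 of 7 tested higher). The 3 markers of B cells and dendritic cells passed the filter through mTEC, so that count is no support for a direction. Which cells made the RNA of all these markers was not tested, nor was their part in the levels of *Gfi1b*, *Lrmp*, *Trpm5* and *Dclk1*.

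*Trpm5* was at 10.4 to 27.8 CPM in 5 of the mTEC libraries at P0 and at 0 in the sixth, which kept it out of the test, and at no more than 0.889 CPM in cTEC. The library at 0 carried the prefix DFCK, and the difference was 6.36 within TXCK and 5.42 within DFCK on the log2 scale. *Trpm5* reached the level of the filter in 5 of 6 mTEC and 0 of 6 cTEC libraries, so these values are a description without a test. *Pou2f3* was at 4.21, 10.9 and 22.3 CPM in mTEC and at 2.02, 6.59 and 14.5 CPM in cTEC, and *Dclk1* at 11.4, 21.0 and 39.4 CPM and at 24.3, 29.2 and 34.1 CPM. Both overlapped, with log2 fold changes of 0.79 ± 0.54 (adjusted p = 0.261) and -0.31 ± 0.26 (adjusted p = 0.360). The newborn cortex thus had reads of *Pou2f3* and *Dclk1* at levels that the test did not separate from those of the medulla.

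At 4 weeks, 6 of the 8 genes were higher in mTEC and none lower, with 7 tested (15.8% of all genes higher and 9.38% lower). *Trpm5*, *Avil*, *Gnat3* and *Gfi1b* reached the level of the filter in 6 of 6 mTEC and 0 to 2 of 6 cTEC libraries, so here too they were tested because they were high in mTEC. Their calls are no support for a direction. *Trpm5* was at 5.51, 17.1 and 50.2 CPM in mTEC and at 0, 0.130 and 0.464 CPM in cTEC (log2 fold change 6.99 ± 1.11, adjusted p = 0.000397). *Avil* was at 9.33, 106.6 and 138 CPM and at 0, 0.411 and 6.72 CPM (5.96 ± 1.23, adjusted p = 0.00277). Neither gene had overlapping groups.

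*Gnat3* was at 12.46, 20.2 and 47.2 CPM in mTEC and had counts in 1 of 6 cTEC libraries, at 3.13 CPM (5.49 ± 1.52, adjusted p = 0.0171). Without that library (cTEC replicate 1) all cTEC were at 0, and the fitted value of 11.02 depends on the prior count. *Gfi1b* was at 8.69, 21.8 and 29.3 CPM and at 0, 0.352 and 3.55 CPM (4.26 ± 1.25, adjusted p = 0.0226). The ranges of both genes were apart. *Dclk1* was at 16.1, 43.3 and 95.6 CPM in mTEC and at 1.82, 6.91 and 31.5 CPM in cTEC (2.22 ± 0.65, adjusted p = 0.0225), and *Lrmp* at 40.8, 85.2 and 163.2 CPM and at 18.3, 44.98 and 53.1 CPM (1.18 ± 0.35, adjusted p = 0.0233). These groups overlapped. *Dclk1* without mTEC replicate 1 (1.94, adjusted p = 0.0538) and *Lrmp* without mTEC replicate 6 (0.91, adjusted p = 0.0597) did not pass, nor did *Lrmp* when all 36 TEC libraries were fitted together (1.16, adjusted p = 0.123). *Pou2f3* was at 0.691, 22.5 and 34.4 CPM in mTEC and at 0.165, 3.36 and 9.89 CPM in cTEC (2.43 ± 1.05, adjusted p = 0.114). It passed without mTEC replicate 3 (2.68, adjusted p = 0.0469) and in DESeq2 (2.46, adjusted p = 0.0345).

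Within TXCK, 5 of these 6 passed, all but *Gfi1b* (3.21, adjusted p = 0.195), where 15.4% of all genes were higher. Within DFCK 2 passed, *Avil* (7.68, adjusted p = 0.0482) and *Trpm5* (6.17, adjusted p = 0.0434), and 7.06% of all genes were higher, so calls were fewer over all genes too. *Avil*, *Trpm5*, *Gnat3* and *Gfi1b* were tested because they were high in mTEC, so their passes within a prefix are no support for a direction.

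Markers of other cells differed between mTEC and cTEC at 4 weeks. Those of erythroid cells and megakaryocytes summed to 248 to 2069 CPM in mTEC and 10.97 to 564 CPM in cTEC, with 2 of 3 tested markers higher in mTEC. Post-Aire keratinocyte-like markers were at 238 to 1641 CPM in mTEC and 7.26 to 45.9 CPM in cTEC (6 of 6 tested higher), and 8 of 8 thymocyte markers were lower in mTEC. Their part in the levels of *Gfi1b*, *Lrmp* and the other tuft cell genes was not tested.

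From P0 to 4 weeks none of the 7 genes tested passed in mTEC in edgeR's quasi-likelihood test, where 3.64% of all genes were higher and 2.35% lower at 4 weeks. *Dclk1* alone of the 7 had an unadjusted p under 0.05, as did 2868 of all 15883 genes, and its difference was 1.13 ± 0.40 on the log2 scale (adjusted p = 0.131). It was the only 1 of the 7 genes that passed in DESeq2 (1.15, adjusted p = 0.0460), and it passed in edgeR without mTEC replicate 3 at 4 weeks (1.32, adjusted p = 0.0243). That library had the lowest total of the TEC libraries, 5785352 counts, the lowest *Pou2f3* (0.691 CPM), *Avil* (9.33 CPM) and *Dclk1* (16.1 CPM) and the highest *Gnat3* (47.2 CPM) of its group. The estimates of the others were 0.79 ± 0.72 for *Pou2f3*, 0.62 ± 0.54 for *Avil*, 0.58 ± 0.41 for *Gnat3*, 0.52 ± 0.85 for *Trpm5*, 0.29 ± 0.40 for *Lrmp* and -0.18 ± 0.34 for *Gfi1b*, with adjusted p from 0.554 to 0.865. All 7 groups overlapped between the ages. Errors of this size leave room for changes in either direction, and a p that misses the threshold does not show equal levels.

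The signs were not shared by the prefixes for all genes. In DFCK the estimates of *Pou2f3* and *Avil* were -0.40 and -0.25 and that of *Gfi1b* was 0.16, whereas in TXCK they were 1.37, 1.16 and -0.58, with no adjusted p under 0.05 in either. Of the other tuft cell genes, 4 of 37 were higher at 4 weeks and none lower (median 0.42 against -0.06 over all genes): *Ltc4s*, the leukotriene C4 synthase gene (2.71, adjusted p = 0.00731), *Ptpn18* (2.10, adjusted p = 0.0154), *Rgs13* (2.04, adjusted p = 0.0348) and *Bmx* (2.15, adjusted p = 0.0377). Markers of another mature medullary cell moved with age too, as 6 of 8 markers of post-Aire keratinocyte-like mTEC were higher at 4 weeks, and their sum was 83.7 to 171.5 CPM at P0 and 238 to 1641 CPM at 4 weeks. Markers of erythroid cells and megakaryocytes summed to 33.6 to 46.5 CPM at P0 and 248 to 2068.5 CPM at 4 weeks (1 of 6 tested higher). Those of mast cells and basophils summed to 0 to 8.87 and 7.21 to 19.5 CPM (0 of 2 tested higher). Their part in the differences of the tuft cell genes was not tested.

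In cTEC, 1 of the 8 genes was higher at 4 weeks than at P0 and none lower, with 3 tested (12.3% of all genes higher and 9.99% lower). *Lrmp* was at 0 in 5 of 6 libraries and at 2.59 CPM in the sixth at P0, and at 18.3, 44.98 and 53.1 CPM at 4 weeks, without overlap. Its log2 fold change was 6.82 ± 1.01 (adjusted p = 0.000294), or 11.98, a value that depends on the prior count, without the P0 library that had counts (replicate 3). It reached the filter in 6 of 6 libraries at 4 weeks and in 1 of 6 at P0, so it was tested because it was high at 4 weeks, and the call is no support for a direction. The difference was 5.99 in TXCK. In DFCK, where all 3 libraries at P0 were at 0, the mean at 4 weeks was at least 130.6-fold higher than 3 counts per library at P0. *Lrmp* is expressed by lymphocytes, and the summed level of 8 thymocyte markers was 25.3, 30.6 and 49.5 CPM in cTEC at P0 and 425, 1404 and 1947 CPM at 4 weeks, with 8 of 8 higher at 4 weeks. In mTEC at 4 weeks the same sum was 20.4 to 68.4 CPM. Markers of the mTEClo, the population with the highest median of *Lrmp*, rose in cTEC as well (3 of 4 higher, with sums of 318 to 599 CPM at P0 and 1185 to 6595 CPM at 4 weeks), as did 2 of 2 tested fibroblast markers and 1 of 1 of the endothelium. The part of RNA from these cells in the *Lrmp* counts of cTEC was not tested. *Dclk1* had an estimate of -1.35 ± 0.53 (adjusted p = 0.0810), which was -2.67 (adjusted p = 0.0191) in TXCK, -0.74 (adjusted p = 0.473) in DFCK and -2.06 (adjusted p = 0.0039) without cTEC replicate 1 at 4 weeks. *Pou2f3* had an estimate of -0.77 ± 0.85 (adjusted p = 0.567). Of 16 other tuft cell genes tested in cTEC, 5 were higher at 4 weeks (*Inpp5d*, *Il33*, *Fyb*, *Ptgs1* and *Krt18*) and 1 lower (*Hpgds*), and *Inpp5d* and *Fyb* are also expressed by lymphocytes.

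The change with age was set against each other in mTEC and cTEC as an interaction, which passed for 3 of the 8 genes, 1 higher and 2 lower in mTEC (1.19% of all genes higher and 4.33% lower). The value was 2.45 ± 0.70 for *Dclk1* (adjusted p = 0.0401), -6.84 ± 1.65 for *Gfi1b* (adjusted p = 0.0176) and -6.56 ± 1.06 for *Lrmp* (adjusted p = 0.000365). For *Gfi1b* it rests on a few counts in cTEC, where all libraries at P0 and 3 of 6 at 4 weeks were at 0, so that the fitted size depends on the prior count. *Gfi1b* passed the filter through mTEC, and *Lrmp* was at 0 in 5 of 6 cTEC libraries at P0, so the 2 lower calls are no support for a direction. In the same interaction 8 of 8 thymocyte, 4 of 6 cTEC, 2 of 4 mTEClo, 2 of 3 fibroblast, 1 of 3 endothelial and 1 of 6 mTEChi markers were lower. Of the post-Aire keratinocyte-like markers 1 of 8 was higher. The part of these cells in the value of *Lrmp* was not tested. That value was -11.62 without cTEC replicate 3 at P0, the one with counts there. The call of *Dclk1* was lost in 14 of 24 fits that left out 1 library. In DESeq2 the split among all called genes was 503 higher and 974 lower, against 206 and 748 in edgeR, and the median of all genes was -0.05, against -0.21.

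*Trpm5* and *Dclk1* were also found in the mesenchyme. *Trpm5* was at 10.3, 37.9 and 48.5 CPM in gp38+CD26+ cells at P0 and at 0, 0.667 and 2.25 CPM at 4 weeks, or 0, 0.812 and 2.25 CPM without the library of 25702 counts. In gp38+CD26- cells it was at 5.91, 20.6 and 37.1 CPM at P0 and at 0.275, 0.483 and 2.17 CPM at 4 weeks. All libraries at P0 were above those at 4 weeks in gp38+CD26- cells, and above 5 of 6 in gp38+CD26+ cells. The sixth, that of 25702 counts, had 0 counts of *Trpm5*, which allows up to 116.7 CPM, so that it cannot be placed. The P0 levels overlapped with those of mTEClo. *Gnat3*, *Gfi1b*, *Il25*, *Avil* and *Lrmp*, in contrast, did not reach the filter on low counts in either population. *Pou2f3* had counts in all 6 libraries of Ly51+gp38- cells at P0 (2.90, 4.03 and 5.76 CPM) and of gp38+CD26- cells at 4 weeks (1.48, 2.58 and 12.49 CPM), which overlapped with the ranges of cTEC at both ages. In the other mesenchymal groups 1 to 4 of 6 libraries had counts of it, and in CD31+ cells none.

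The ages of these populations were compared because of these levels, so the differences are a description without a test. *Dclk1* was at 205, 268 and 394 CPM in gp38+CD26- cells at P0 and at 566, 686 and 731 CPM at 4 weeks, without overlap, and the 4-week median was the highest of the gene in the 14 populations. In gp38+CD26+ cells it was at 133, 169 and 241 CPM at P0 and at 166.7, 274 and 577 CPM at 4 weeks (median 287 CPM without the library of 25702 counts), which overlapped. CD31+ cells had *Dclk1* at 0, 0 and 1.56 CPM at P0 and at 44.6, 80.7 and 126 CPM at 4 weeks.

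In the newborn single-cell data 21 of the 9083 TEC were labelled as tuft-like TEC (TlTEC). The labels came from clusters of the same counts, so the levels by label are a description without a test. All 8 genes had their highest level in TlTEC among the 29 labels, although for *Gfi1b* the counting intervals of TlTEC and of mature medullary cells overlapped. For *Pou2f3* and *Il25*, read from few UMIs, counting error did not separate TlTEC from every small label either. Structural TEC (sTEC, 32 cells), for example, had no UMI of these genes. The 21 cells had a median of 3472 UMIs. *Lrmp* was the most abundant of the 8 genes in them by UMIs, with 463 UMIs in 20 of 21 cells, or 5976 CPM of UMIs (95% Poisson interval 5444 to 6546). *Gnat3* had 205 UMIs in 19 cells, or 2646 CPM (2296 to 3034), and *Avil* 74 UMIs in 17 cells, or 955 CPM (750 to 1199). These are 3' tag counts, in which a gene's length does not enter.

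*Trpm5* was found in 16 of the 21 cells (25 UMIs, 323 CPM, 209 to 476) and *Dclk1* in 11 (44 UMIs, 568 CPM, 413 to 762). *Pou2f3* was found in 4 cells (5 UMIs, 64.5 CPM, 21.0 to 150.6), *Il25* in 3 cells (3 UMIs, 38.7 CPM, 7.99 to 113.2) and *Gfi1b* in 2 cells (2 UMIs, 25.8 CPM, 3.13 to 93.2). The signalling genes *Gnat3* and *Lrmp* were thus read in nearly all cells of the label, and the transcription factor genes in few. In thymocytes, which should lack *Gnat3*, 1 of 535 cells had a UMI of it, at a median of 2071 UMIs per cell. After thinning to 2000 UMIs, which left 19 of the 21 cells, *Lrmp* was found in 19, *Gnat3* in 16, *Avil* in 14, *Trpm5* in 11, *Dclk1* in 8, *Pou2f3* in 3, *Il25* in 2 and *Gfi1b* in 1.

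**Figure D4:**
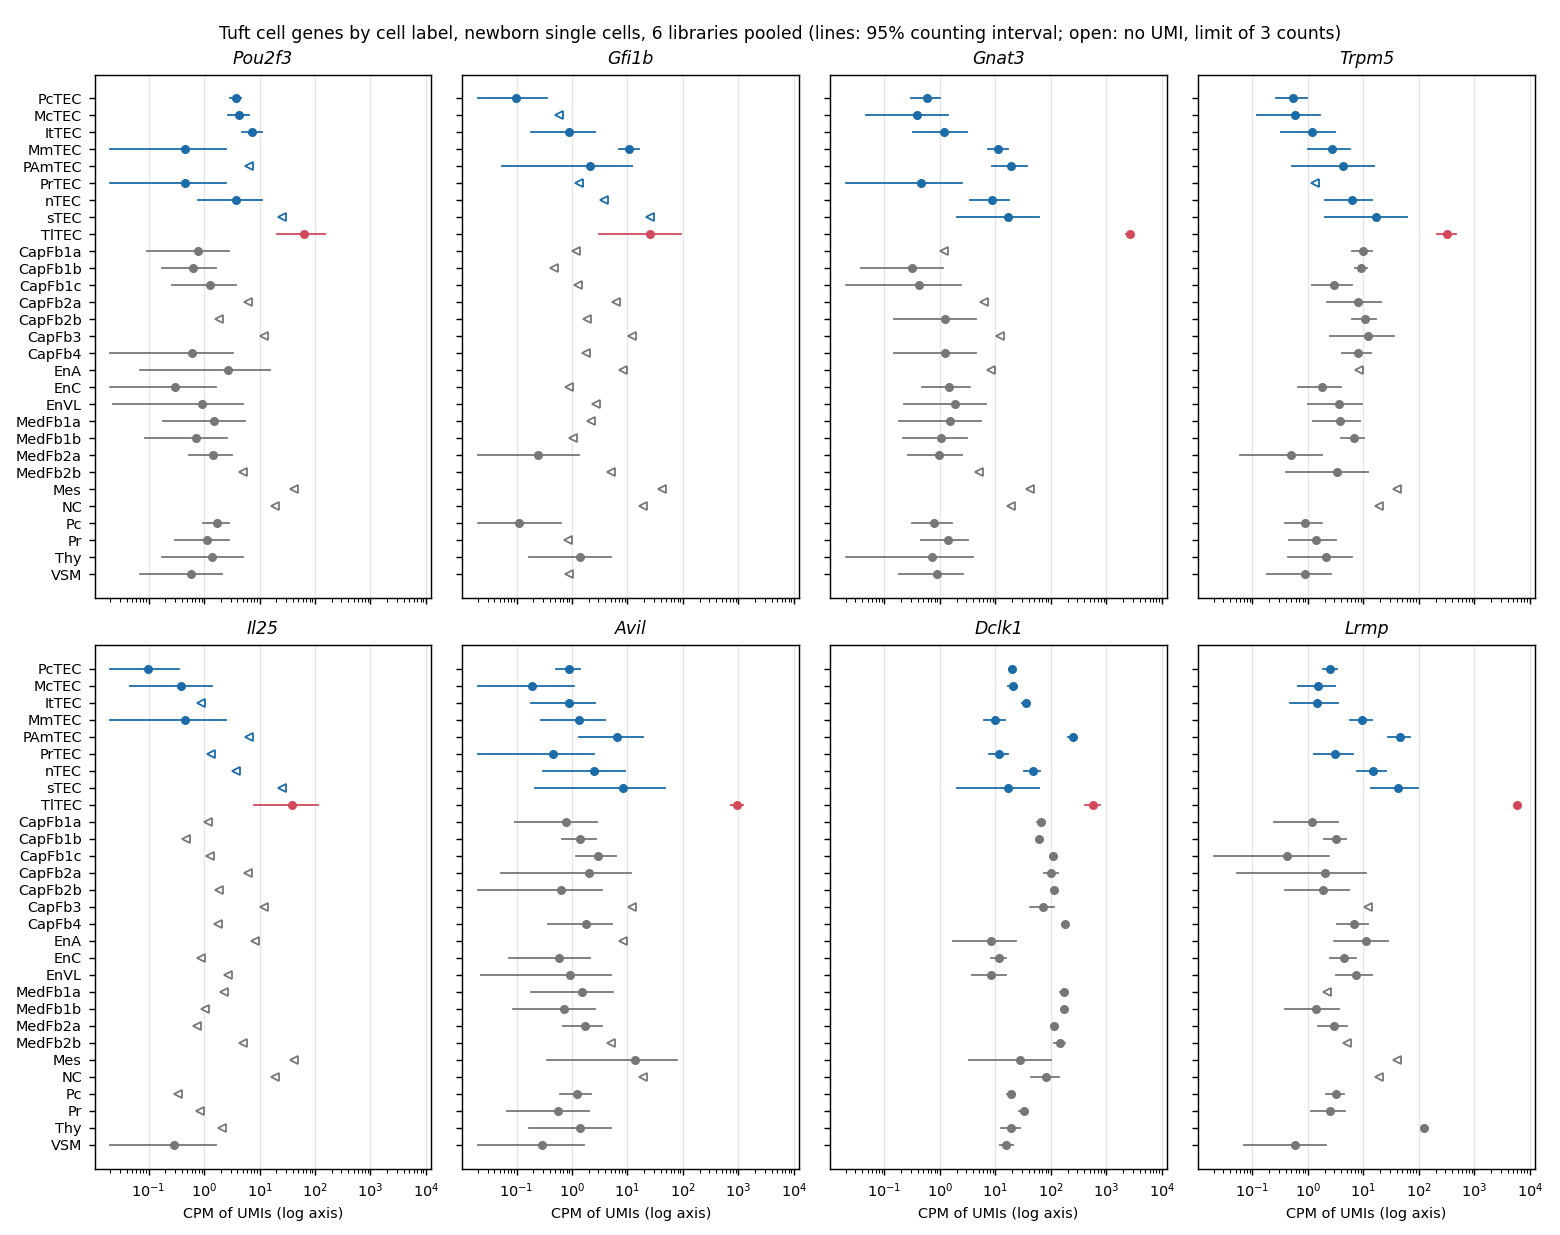
CPM of each of the 8 genes, pooled over the cells of each of the 29 labels of the newborn data, on a log axis with 95% counting intervals; open triangles stand at the limit of 3 counts for labels without a UMI. *Lrmp*, *Gnat3*, *Avil* and *Trpm5* are highest in TlTEC, at 5976, 2646, 955 and 323 CPM.

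The TlTEC cells came from 5 of the 6 libraries. By library, *Lrmp* was at 5377 and 4730 CPM in WT replicates 2 and 3 and at 5707, 10741 and 4543 in *Tbx1*+/-*Crkl*+/- replicates 1 to 3. *Gnat3* was at 3602 and 1858 in WT and at 3913, 1164 and 634 in *Tbx1*+/-*Crkl*+/- mice, so both genes were present in every library that had the label. *Dclk1* was at 798 and 591 in WT and at 326, 358 and 0 in *Tbx1*+/-*Crkl*+/- mice, and 31 of its 44 UMIs came from WT replicate 2. Without that library the pooled level was 337 CPM for *Dclk1* and 1684 CPM for *Gnat3*, and without WT replicate 3 that of *Gfi1b* was 15.2 CPM. Each of the 8 genes remained highest in TlTEC when any 1 of the 6 libraries was left out.

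The share of all TEC UMIs that lay in these 21 cells divided the genes. It was 77.8% for *Lrmp*, 76.8% for *Gnat3*, 69.8% for *Avil*, 43.1% for *Trpm5* and 37.5% for *Il25*, which had 8 UMIs in TEC. It was 6.25% for *Gfi1b*, 4.97% for *Dclk1* and 3.70% for *Pou2f3*, most of whose UMIs lay in other TEC. *Gfi1b* had 24 UMIs in 16 of 518 mature medullary cells (MmTEC, 10.8 CPM, 6.90 to 16.0). *Pou2f3* was at 7.41 CPM in intertypical TEC (ItTEC, 25 UMIs in 24 of 1166 cells). *Dclk1* was at 250 CPM in post-Aire medullary cells (PAmTEC), where 28 cells (21.2%) had a UMI and 1 cell held 22 of the 117 UMIs, and at 35.9 in ItTEC, 20.6 in mature cortical cells (McTEC) and 19.6 in perinatal cortical cells (PcTEC).

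Some levels in other labels rested on 1 cell. In PAmTEC, 17 of 21 UMIs of *Lrmp* and 8 of 9 UMIs of *Gnat3* lay in 1 cell. Outside TEC, *Lrmp* was found in thymocytes (in 142 of 535 cells, 126 CPM). *Dclk1* was at 61.4 to 177 CPM in the labels of capsular and medullary fibroblasts, and *Trpm5* at 2.97 to 12.02 in those of capsular fibroblasts. Without WT replicate 3, *Trpm5* was at 25.1 CPM in CapFb3, a label of capsular fibroblasts.

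The 8 genes were found together in cells of the TlTEC label. All 21 cells had a UMI of at least 2 of the 8 genes, 20 of at least 3, 15 of at least 4, and 7 of 6. Of the other 9062 TEC, 36 (0.397%, 95% Clopper-Pearson interval 0.278 to 0.550%) had at least 2 and 5 had at least 3. Of the 12368 cells outside TEC, 94 (0.760%, 0.615 to 0.929%) had at least 2 and 7 had at least 3. The labels came from clusters of the same counts, so this is a description of the cells of the label.

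**Figure D5:**
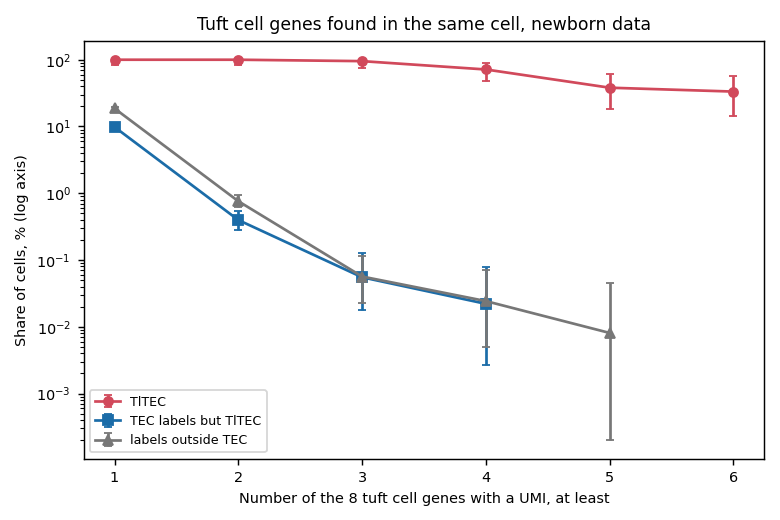
Percentage of cells (log axis) with a UMI of at least the number of the 8 genes on the horizontal axis, for TlTEC, for other TEC and for cells outside TEC, with 95% Clopper-Pearson intervals. The curve of TlTEC stays at 100% up to 2 genes, where the others are at 0.397% and 0.760%.

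Of the other tuft cell genes, *Gnb3* (2117 CPM, 164 UMIs), *Krt18* (1910), *Fyb* (1562) and the G protein subunit gene *Gng13* (1433) were the most abundant in TlTEC, followed by *Sh2d6* (826). *Alox5* was at 207 and *Rgs21* at 181 CPM. *Krt20*, *Tslp* and *Slc5a7* had 0 UMIs among 77479, which allows up to 38.7 CPM. *Krt20* was thus without a UMI in the cells that carried the tuft-like label at P0, and lower in mTEClo than in mTEChi at 4 weeks.

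The genotypes were compared to find whether the compound heterozygous thymus differed in tuft-like cells or genes. TlTEC made up 2 of 812, 3 of 2571 and 3 of 1310 TEC in the 3 *Tbx1*+/-*Crkl*+/- libraries and 0 of 666, 9 of 1362 and 4 of 2362 TEC in the 3 WT libraries. The shares overlapped, and the WT library without a TlTEC allows a share of up to 0.450%. The mean share was 0.197 ± 0.0704% (SD, n = 3) in *Tbx1*+/-*Crkl*+/- and 0.277 ± 0.343% (SD, n = 3) in WT, a difference of -0.0794 percentage points (two-sided exact permutation test, p = 0.9, where 3 against 3 cannot go below 0.1). Without WT replicate 2 the difference was 0.113 percentage points.

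UMIs were then summed over all TEC of each library. Of the 8 genes, 6 were tested and 0 passed in edgeR's quasi-likelihood test, none with an unadjusted p under 0.05, among 0% of all 13718 genes, of which 851 had an unadjusted p under 0.05 and 9 passed in DESeq2. The log2 fold changes of *Tbx1*+/-*Crkl*+/- against WT were -0.71 ± 0.40 for *Pou2f3*, -0.89 ± 0.92 for *Gnat3*, -0.48 ± 0.57 for *Trpm5*, -0.35 ± 0.68 for *Avil*, -0.01 ± 0.21 for *Dclk1* and 0.29 ± 0.74 for *Lrmp*, with adjusted p from 0.689 to 0.987. *Pou2f3* was at 2.86 ± 0.765 CPM in *Tbx1*+/-*Crkl*+/- and at 4.90 ± 1.38 in WT (mean ± SD, n = 3), and *Gnat3* at 5.63 ± 3.53 and 9.39 ± 13.7. The spread of *Gnat3* between WT libraries was larger than its mean. *Lrmp* was highest in WT replicate 2, with 9 TlTEC (36.9 CPM), and lowest in WT replicate 1, which had none (0.915 CPM), but was at 23.1 CPM in *Tbx1*+/-*Crkl*+/- replicate 2 with 3 such cells and at 5.93 CPM in WT replicate 3 with 4. Of 23 other tuft cell genes tested, 0 were higher and 0 lower.

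In the single cells of EpCAM- stroma between E12.5 and 4 weeks, *Dclk1* was the gene with the highest level, at 207 CPM in neural crest-derived cells (NC) and 153 in the MedFb1b label of medullary fibroblasts. Levels in these cells are given by label without a split by age, so a difference between ages would not be seen in them. *Trpm5* was highest in the CapFb3 and CapFb1b labels of capsular fibroblasts, at 10.96 and 8.74 CPM. *Avil* was at no more than 0.859 CPM in any label, and *Lrmp* was at most 6.95, in arterial endothelium (EnA). *Trpm5* and *Dclk1* were thus read in mesenchymal cells of both the bulk and the single-cell data. *Avil*, *Gnat3*, *Gfi1b* and *Il25* had medians of 0 in the mesenchymal groups of the bulk data, although *Avil* reached 4.44 CPM in a gp38+CD26- library at P0. In the 21 mesothelial cells of the newborn data, *Avil* was at up to 23.7 CPM when 1 library was left out.

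Over the 14 medians of the bulk populations, the gene most like the mean pattern of the 8 genes was *Itprid1* (r = 0.979), among 18804 genes with a median of at least 1 CPM in some population. It was followed by *1700003M07Rik* (0.978), the granin gene *Chgb* (0.977), *Rgs21* (0.975), *Speer4c* (0.974), *Prss27* (0.973), *Rgs13* (0.970), *Ptgs2os* (0.970), the lactoferrin gene *Ltf* (0.969) and *Alox5* (0.969). *Rgs21*, *Rgs13* and *Alox5* are on the tuft cell list and *Chgb* on that of neuroendocrine-like mTEC. Among the 8 genes themselves, r with the mean that they form was 0.974 for *Gnat3*, 0.968 for *Avil*, 0.913 for *Gfi1b*, 0.843 for *Lrmp*, 0.832 for *Pou2f3*, 0.740 for *Trpm5*, 0.686 for *Il25* and 0.137 for *Dclk1*. These are correlations over medians that share libraries, given as a description. *Il25* entered the mean pattern with the same weight as the other genes, although only its median in mTEClo was above 0. *Dclk1*, with its high levels in fibroblasts, was the gene whose pattern was least like that of the rest.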

How the data were processed

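The 84 bulk RNA-seq libraries and 14 single-cell libraries were grouped by their titles. The authors deposited whole read counts per Ensembl gene for the bulk data and whole UMI counts per gene and cell for the single-cell data, both without normalization. The submitters' processing notes name STAR 2.5.3a, HTSeq, Cell Ranger 3.1.0 and mm10. Per the study's methods, the authors filtered cells by gene number, mitochondrial share and doublet calls, and the deposited cell labels were used unchanged. Entries of no gene held 7.81 to 29.4% of the bulk counts and were left out.

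The 8 genes and all gene lists were chosen with earlier results of these data known. Genes named from the tuft cell list are the up to 4 per role with the smallest adjusted p among those that passed in mTEClo against mTEChi, and those on which a count of 5 or fewer rests. Comparisons used edgeR 4.0.16 (R 4.3.3; quasi-likelihood test on counts, filterByExpr, TMM, Benjamini-Hochberg adjustment over all genes tested, threshold 0.05), with SE = |log2 fold change| / √F. The fit was checked on counts simulated from the mTEChi means with a fixed dispersion, with changes only in well-counted genes. That check does not cover genes with libraries at 0 or with a wider spread. Newborn UMIs were summed over TEC per library. DESeq2 1.42.0, no TMM, no filter, 1 fit over 36 TEC libraries, a term for the prefix, a replicate block and leaving out each library were tried. Fits within a prefix were added after seeing the data, as were a fit without 2 mTEClo libraries and fits of gp38+ cells by age, whose tests are not reported because the same values prompted them. Levels in TlTEC without each library were added likewise. Same-numbered bulk libraries correlated at -0.053 to 0.093 and newborn ones at -0.420 to 0.089, so the numbers were not taken as pairs.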

Additional observations from a re-analysis of the deposited data

Results flagged for a closer look

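In groups of 6 libraries, a library was listed here when its gap to the nearest other took up more of the group's range than Dixon's 95% critical value allows. This held in 12 of 48 groups of a gene and a population that were tested. The critical value assumes a normal spread, which CPM with libraries at 0 do not have, so the count is not set against a chance rate. A group with 5 libraries at 0 and 1 above is listed by construction. This was so for *Il25* in mTEC at 4 weeks, *Gnat3* in cTEC at 4 weeks and *Lrmp* in cTEC at P0. In the medulla the listed groups were *Trpm5* in mTEClo (replicate 4, 126.8 CPM), *Il25* in mTEClo (7.40 CPM) and in mTEC at 4 weeks (4.28 CPM), *Gnat3* in mTEC at 4 weeks (replicate 3, 47.2 CPM, the library with the lowest total of the TEC) and *Dclk1* in mTEC at P0 (replicate 4, 39.4 CPM). In cTEC at 4 weeks they were *Avil* (6.72 CPM), *Gnat3* (3.13 CPM) and *Lrmp* (the lowest, 18.3 CPM), and in cTEC at P0 *Lrmp* (2.59 CPM). In fibroblasts at 4 weeks they were *Trpm5* (2.17 CPM) and *Dclk1* (the lowest, 566 CPM) in gp38+CD26- cells, both in replicate 5, and *Dclk1* (577 CPM) in replicate 1 of gp38+CD26+ cells, which was not the library of 25702 counts. Without the latter, the gap of *Dclk1* took up 0.698 of the range of the other 5 libraries, which is under the critical value for 5.

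The interaction of population (mTEC or cTEC) and age (P0 or 4 weeks) passed in edgeR's quasi-likelihood fit for *Gfi1b* (-6.84 on the log2 scale), *Lrmp* (-6.56) and *Dclk1* (2.45). The size for *Gfi1b* depends on the prior count, since all cTEC libraries at P0 and 3 of 6 at 4 weeks were at 0. Beside that of *Lrmp*, 8 of 8 thymocyte markers and some of cTEC, mTEClo, mTEChi, fibroblasts and endothelium were lower, and the part of these cells was not tested. *Gfi1b* passed the filter through mTEC and *Lrmp* was at 0 in 5 of 6 cTEC libraries at P0, so these 2 calls are no support for a direction. The interaction of *Dclk1* did not pass in 14 of 24 fits that left out 1 library.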

How the results depend on the processing

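Few counts lay behind the values of *Il25*, with counts in 8 of 84 libraries, and of *Pou2f3*, *Gfi1b* and *Il25* in the 21 TlTEC cells. The part of sequencing depth in this was not tested. Of the log2 fold changes of single genes under the alternatives, 1023 kept their sign and side of the threshold, 99 lost a call, 18 gained one and 13 changed sign. The cause was not tested unless fewer libraries or genes were fitted.

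Genes among the 8 that passed: mTEClo against mTEChi 4, and 1 within DFCK. mTEC by age 0, and 1 in DESeq2 (0 to 1 leaving out a library). cTEC by age 1, and 2 in DESeq2, with the prefix as a term and within TXCK, and 5 in 1 fit over 36 libraries (1 to 2 leaving out a library). Of the 8 genes only 3 passed the filter on cTEC libraries alone. The 5 thus include genes that the filter kept through other TEC, and *Lrmp*, which was tested because it was high at 4 weeks. These counts are no support for a change of the 8 genes with age in cTEC. mTEC against cTEC at 4 weeks 6, and 2 within DFCK, counts that include genes tested because they were high in mTEC. Of all genes, 2537 passed in mTEClo against mTEChi, 3809 without a filter and 4471 in 1 fit over 36 libraries. In mTEC by age 952 passed, 1798 in DESeq2, 3 within DFCK and 630 to 1461 leaving out a library (630 without mTEC replicate 3 at P0 and 1461 without mTEC replicate 3 at 4 weeks). In cTEC by age 2902 passed, 1582 within TXCK and 933 within DFCK. In mTEC against cTEC 6481 passed at P0, 4141 within DFCK, and 3564 at 4 weeks, 7140 in 1 fit and 1466 within DFCK. In the interaction 954 passed and 1477 in DESeq2. Between genotypes 0 passed, 9 in DESeq2 and 0 to 1 leaving out a library.

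The sign changed for *Gfi1b* in mTEClo against mTEChi without replicates 1 and 3 (0.21), for *Pou2f3* (-0.40), *Avil* (-0.25) and *Gfi1b* (0.16) in mTEC by age within DFCK, for *Pou2f3* in cTEC by age within TXCK (0.10) and for *Gnat3* in the interaction without cTEC replicate 1 at 4 weeks (0.63, range -5.27 to 0.63). Between genotypes it changed for *Dclk1* without TMM (0.0191) and, leaving out a library, for *Dclk1* (-0.16 to 0.13), *Avil* (-0.83 to 0.57), *Gnat3* (-1.43 to 1.36), *Lrmp* (-0.17 to 2.001) and the TlTEC share (-0.218 to 0.113 percentage points, the latter without WT replicate 2). None of these had passed.

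With the replicate number as a block, which is not known to pair libraries, 4 of the 8 genes passed in mTEClo against mTEChi, 4 in mTEC against cTEC at P0, 6 at 4 weeks and 0 between genotypes, as without it. All 4 at P0, and *Trpm5*, *Avil*, *Gnat3* and *Gfi1b* at 4 weeks, were tested because they were high in mTEC. Their passing with and without the block is no support for a direction. The share of all genes that passed with the block is not given here. The block ended the calls of *Rgs21*, *Sh2d6*, *Rgs13*, *Bmx*, *Alox5ap* and *Ptgs1* in mTEClo against mTEChi.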
